A study of Mus musculus with 12 samples.

Results

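The genes described here are 34 genes of fatty acid oxidation and of its regulator PPAR alpha, measured in mouse kidney. They were taken as the rows of the deposited table whose gene name equals a listed member, which gave 34 of 33188 genes. All 34 passed the filter on low counts, as did 19772 genes in all. The study measured kidney RNA of wild-type mice in 12 strand-specific libraries, 4 in each of 3 groups. CTL was the control group. HUA was a hyperuricemia model made with potassium oxonate, which inhibits uricase, and hypoxanthine, a purine that the body turns into uric acid. XZSW received both inducing agents as well, together with Xin-Zi-Sheng-Wan decoction. The labels give no age, sex, dose or duration, and nothing in them ties the 4 samples of each group to different mice. A p-value here thus reflects how far these samples spread, and that spread may be technical.

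Fatty acids are activated to acyl-CoA and burned in repeated rounds of dehydrogenation, hydration, dehydrogenation and thiolysis. Mitochondria take up long-chain acyl groups through the carnitine shuttle and pass the electrons to the respiratory chain, while peroxisomes shorten very long and branched chains with separate enzymes. PPAR alpha is a nuclear receptor that is activated by fatty acids and raises the transcription of many enzymes of both organelles, and PGC-1 alpha is one of its coactivators. Proximal tubule cells are rich in mitochondria and peroxisomes and use fatty acids as a main fuel. Among the members, 18 were assigned to mitochondria, 8 to peroxisomes, 6 to both or other places and 2 were regulators.

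The upstream DNA of the members that the comparisons below turn on is shown first. RefSeq promoter windows of GRCm38.p6, 250 bases before to 50 after a gene's start, were found for 29 of the 34 members (31 windows). Some RefSeq starts lay far from those of the authors' gene models. They were 32952 bases apart for Eci2, 19929 for a window of Acsl1 and 1618 for Acaa1a. For Cpt1a, Ppara, Etfdh, Slc27a2 and Acad11 they were 967, 793, 733, 617 and 347 bases apart. These windows do not hold the start of the authors' model. Acot2, Acot1 and Acot3, paralogous acyl-CoA thioesterases of one stretch of chromosome 12, where Acot4 lies between Acot1 and Acot3, are shown because Acot3 was called in XZSW against HUA and the other two were not. Their bases from -120 to -21 before the start, on the plus strand, were chr12:83987741-83987840 (Acot2), chr12:84009382-84009481 (Acot1) and chr12:84052024-84052123 (Acot3). Capitals mark the letters CCAAT or, on the other strand, ATTGG, which were looked for after these stretches had been seen.
Acot2: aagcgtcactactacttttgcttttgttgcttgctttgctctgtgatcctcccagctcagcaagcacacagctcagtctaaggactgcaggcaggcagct
Acot1: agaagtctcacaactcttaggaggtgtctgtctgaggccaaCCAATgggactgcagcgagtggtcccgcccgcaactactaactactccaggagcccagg
Acot3: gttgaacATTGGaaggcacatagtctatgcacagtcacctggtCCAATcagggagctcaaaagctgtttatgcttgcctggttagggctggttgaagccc
The CCAAT letters lay at -79 to -75 in Acot1 and at -77 to -73 in Acot3, which also held ATTGG at -113 to -109, and neither was in the Acot2 stretch. Of 32851 windows in the table, 19.2% held either form in the same 100 bases, as did 10 of the 31 windows of members.

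PPAR alpha binds, with RXR, to a direct repeat of AGGTCA with 1 base between the copies, known as DR1. This repeat was searched on both strands of each window, exactly and with 1 or 2 letters changed. No window of a member held it exactly or with 1 letter changed, against 0.0396% and 0.554% of all windows. With up to 2 letters changed it was in the windows of Etfa and Slc25a20, 2 of 31, against 3.86% of all windows and 10 of 85 windows of the other pathway genes counted below. The Etfa match is shown because Etfa was the only member to pass the threshold in all 3 comparisons. It lay 77 to 65 bases before the start, in capitals in these bases of chr9:55512274-55512363, read along the gene's minus strand; the capitals spell the repeat on the opposite strand.
Etfa: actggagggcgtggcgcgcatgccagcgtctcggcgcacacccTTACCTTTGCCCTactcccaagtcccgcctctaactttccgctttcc
A match is a description of the letters and not a binding site. Hadha and Hadhb, which encode the alpha and beta subunits of the mitochondrial trifunctional protein, were transcribed away from each other. The authors' gene models left 85 bases between them at chr5:30155163-30155247, shown on the plus strand because a single short interval precedes both genes.
Hadha-Hadhb: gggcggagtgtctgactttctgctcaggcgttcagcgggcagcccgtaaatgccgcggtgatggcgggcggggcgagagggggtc

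Library totals ranged from 51643999 to 74288100 counts. Levels are CPM, counts scaled to a common library size, after trimmed-mean (TMM) scaling, with factors of 0.856 to 1.15. Scaled to plain library totals, the median change of all genes in HUA against CTL was 0.39 on the log2 scale, against 0.06 with TMM, and the split of calls moved from 2950 higher and 2538 lower to 5779 and 1320. For XZSW against HUA the split moved from 1402 higher and 1649 lower to 836 and 2714, and for XZSW against CTL from 538 and 449 to 1221 and 224. In HUA2, HUA3, HUA4, XZSW3 and XZSW4 the log2 ratio of genes to the CTL mean rose with their GC content, by 0.23 to 0.36 per 10 percentage points. The other 7 libraries, all 4 of CTL included, lay between -0.06 and 0.05. These 5 and 7 libraries are called the steep and the flat libraries below.

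All 15 proximal tubule markers were detected, with a summed level of 13547 to 17325 CPM in CTL, 2878 to 9345 in HUA and 13978 to 18077 in XZSW. Of the 15, 11 fell in HUA against CTL, 11 rose in XZSW against HUA and 0 passed in XZSW against CTL. Injured tubule markers summed to 233 to 256 CPM in CTL, 1720 to 4920 in HUA and 245 to 351 in XZSW. Macrophage markers summed to 70.5 to 117 CPM in CTL, 315 to 404 in HUA and 79.8 to 234 in XZSW, and fibroblast markers to 38.4 to 60.7, 149 to 278 and 36.4 to 216 CPM. Distal tubule and collecting duct markers summed to 1182 to 1326 CPM in CTL, 888 to 1344 in HUA and 1858 to 2706 in XZSW, and 4 of 5 rose in XZSW against HUA. Podocyte markers summed to 134 to 169 CPM in CTL, 110.4 to 278 in HUA and 229 to 316 in XZSW, thick ascending limb markers to 4293 to 5379, 2109 to 5038 and 1431 to 6014 CPM, and endothelial markers to 75.3 to 101 (CTL), 43.8 to 119 (HUA) and 87.1 to 146 CPM (XZSW). Adipocyte markers reached 61.3 CPM in XZSW1 and at most 4.22 CPM in any other library, and skeletal muscle markers stayed at or below 1.54 CPM, with Ckm, Acta1, Myh4 and Tnnt3 under 1 CPM in every library. Liver markers summed to 94.8 to 124 CPM in CTL, 34.5 to 68.7 in HUA and 68.2 to 135 in XZSW. Of these 4 genes, 1 fell and 1 rose in HUA against CTL. In XZSW 2 rose against HUA and 1 against CTL. The part of these marker levels in the results below was not tested. In whole kidney, fewer cells of a type and less RNA per cell cannot be told apart.

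In the hyperuricemia model all members but Ppara fell. Of the 34 members, 33 fell in HUA against CTL and 0 rose (edgeR, adjusted p under 0.05; 0 were higher at an unadjusted p under 0.05), where 12.8% of all 19772 tested genes fell. The median log2 change of the members was -1.13, with a range of -2.25 to -0.48, while the median over all tested genes was 0.06. In 33 members every HUA library lay below every CTL library, a pattern that 15.2% of all tested genes showed. All 18 mitochondrial members fell, with a median of -1.11, and all 8 peroxisomal members fell, with a median of -1.18. The calls of 21 of the 33 members held in all 23 alternatives, and the fewest calls, 22, came when the steep or flat state of a library was added as a factor, where 11.1% of all tested genes fell. The 12 that lost the call at least once were Ppargc1a, Acsl1, Cpt1a, Cpt1b, Acadl, Hadha, Eci1, Hsd17b4, Decr2, Acot1, Acot2 and Acot3.

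**Figure D1:**
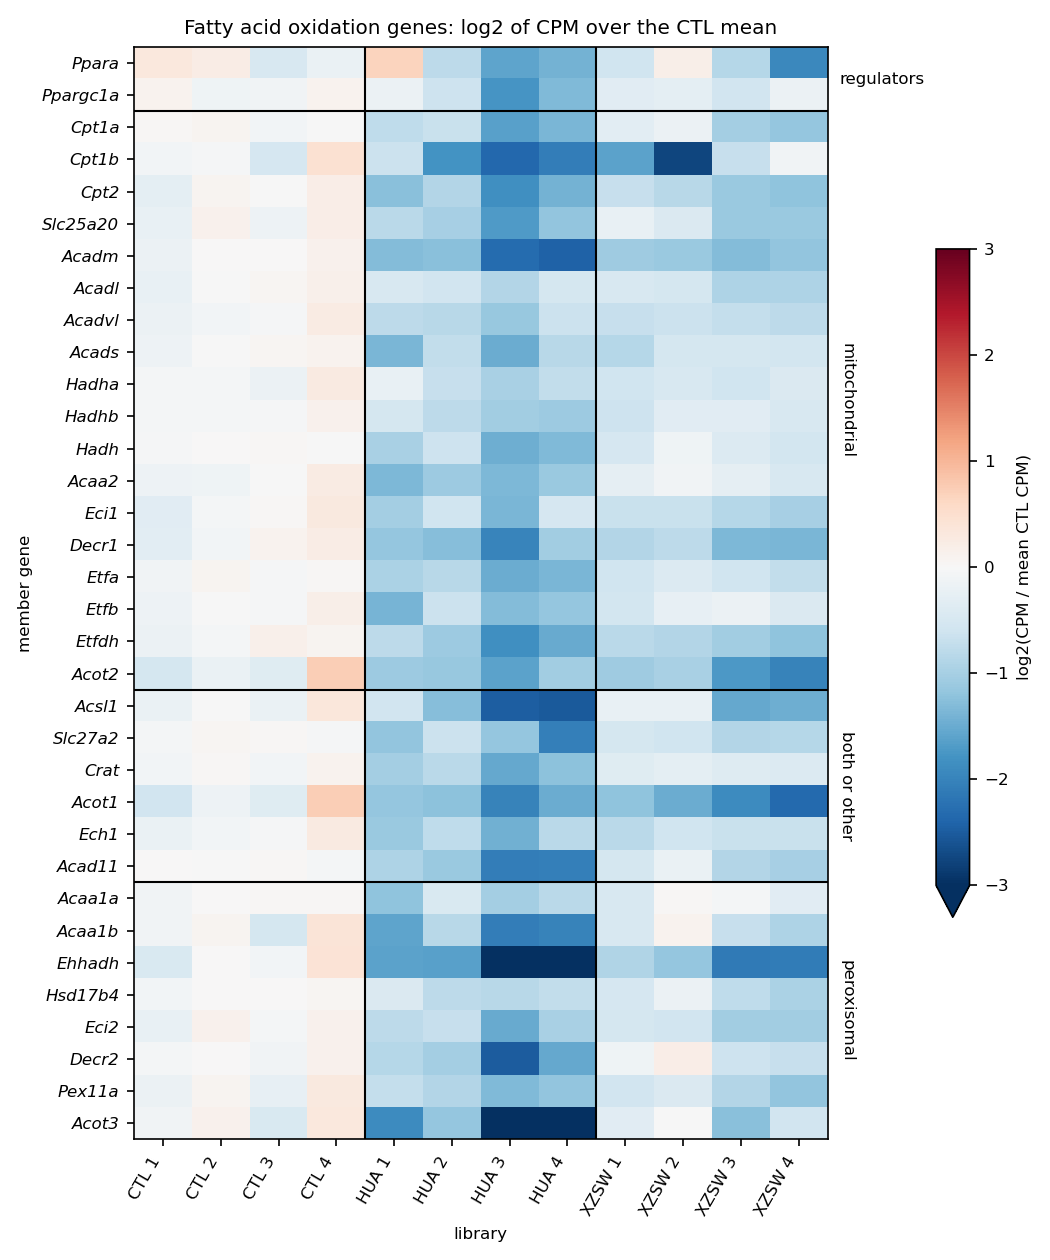
Level of each member gene (rows, grouped by compartment) in each library (columns), as the log2 of its CPM over the mean of the 4 CTL libraries; the colour scale ends at -3 on the low side. In 33 of 34 genes all HUA columns lie below all CTL columns, and the fitted XZSW level lies above HUA in 30 of 34.

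With the decoction, part of the module stood higher. In XZSW against HUA 10 members rose and 0 fell (edgeR; 0 were lower at an unadjusted p under 0.05, and DESeq2 also gave 0), where 7.09% of all tested genes rose. The 10 were Crat, Hadh, Acaa2, Etfa, Etfb, Acaa1a, Acaa1b, Decr2, Acot3 and Acad11. The median log2 change of the members was 0.46 and that of all tested genes 0.01. Of the 18 mitochondrial members 4 rose (median 0.42), of the 8 peroxisomal members 4 rose (median 0.72), and of the 6 in both or other places 2 rose (median 0.61); the difference between compartments was not tested. In 6 members, Crat, Hadh, Acaa2, Etfa, Etfb and Decr2, every XZSW library lay above every HUA library, as in 8.98% of all tested genes. The number that rose was 3 without XZSW2, 4 without HUA3, 4 without HUA4, and 6 without XZSW1 or without XZSW3. In the same fits 3.92%, 3.60%, 5.03%, 5.76% and 4.67% of all tested genes rose, so calls over all genes became fewer too. Fitted on the 8 HUA and XZSW libraries alone it was 3, where 2.51% of all genes rose. On the 3 HUA and 2 XZSW steep libraries alone it was 0, with 6 higher at an unadjusted p under 0.05, but only 5 of all 19772 genes rose in that fit, so its 0 says nothing particular of the members. Crat, Acaa2 and Etfb lost the call only in that last fit of 5 libraries.

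The treated kidneys did not stand level with the controls for all members. In XZSW against CTL 13 members were lower by the test and 0 were higher (edgeR; 0 were higher at an unadjusted p under 0.05), where 2.27% of all tested genes were lower. The 13 were Cpt2, Acadm, Acadl, Acadvl, Eci1, Decr1, Etfa, Etfdh, Acot2, Eci2, Pex11a, Acot1 and Ech1. The median log2 change was -0.64, against 0.04 for all tested genes, and all 34 estimates were below 0. In 26 members every XZSW library lay below every CTL library, as in 11.3% of all tested genes. The count of 13 was 1 without CTL2, 2 without CTL3, 1 without CTL4, 7 without XZSW1, 4 without XZSW4 and 0 without XZSW3, where 20 members were lower at an unadjusted p under 0.05. Over all genes the 449 lower calls became 56, 77, 138, 136, 217 and 80 in the same fits, so the loss was not limited to the members. The members' count was 22 in a fit of the 8 CTL and XZSW libraries alone and 19 with DESeq2, where 6.54% and 5.10% of all genes were lower. The 3 comparisons share libraries, so their values are set side by side without a measure of likeness. Of the 10 members that rose in XZSW against HUA, 9 did not pass in XZSW against CTL. Another 12 members fell in HUA and were lower in XZSW than in CTL with no call between XZSW and HUA. The other 11 fell in HUA with no further call.

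**Figure D2:**
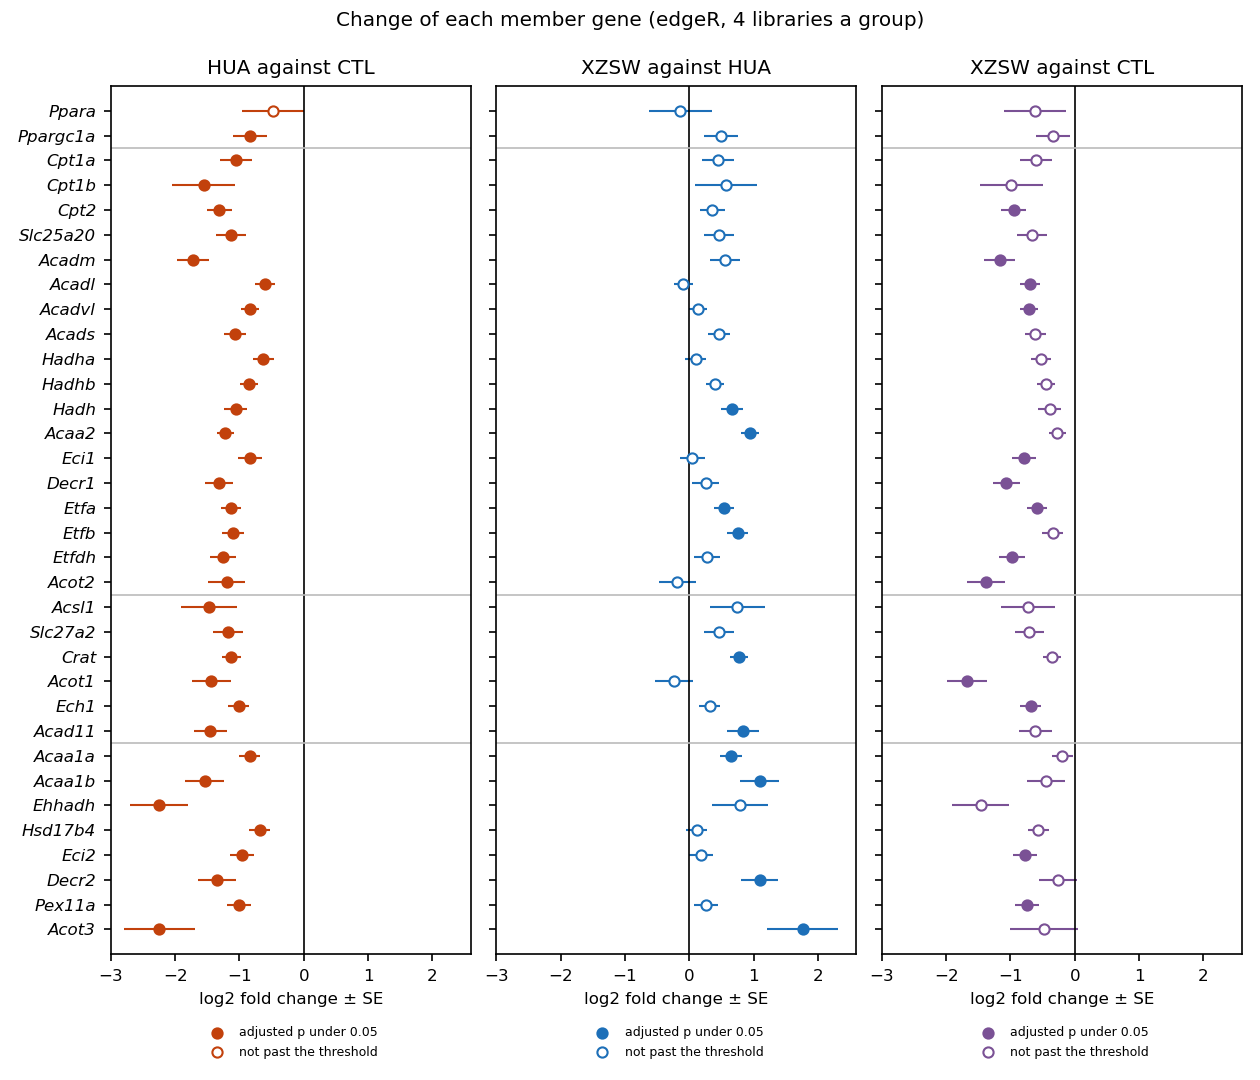
Log2 fold change of each member with its standard error in the 3 comparisons (edgeR, 4 libraries a group); filled points passed an adjusted p of 0.05 and open points did not. In the first panel 33 points are filled and below 0, in the second 10 are filled and above 0, and in the third 13 are filled and below 0.

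Levels per length, in the authors' FPKM averaged over the 12 libraries, spanned a wide range. Slc27a2 stood highest at 771 FPKM, followed by Etfb at 275, Ech1 at 191, Ehhadh at 190.2, Acadm at 148 and Acadl at 146. The regulators were lowest, with Ppara at 5.04 and Ppargc1a at 7.78 FPKM, beside Cpt1b at 8.32 and Acot3 at 8.69. The muscle isoform Cpt1b was thus below the liver isoform Cpt1a, at 44.0 FPKM, on this per-length scale.

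Among the regulators, Ppara (ENSMUSG00000022383, chr15:85734983-85802819, plus strand), the nuclear receptor of the module, was at 34.4, 32.4, 19.98 and 24.01 CPM in CTL1 to CTL4, 43.7, 16.2, 9.20 and 10.4 in HUA1 to HUA4, and 18.4, 31.2, 15.3 and 7.27 in XZSW1 to XZSW4. HUA1 was the highest of all 12 libraries and HUA3 the lowest but 1, and all 3 groups overlapped. Its log2 change was -0.48 ± 0.49 (SE, adjusted p = 0.508) in HUA against CTL, -0.14 ± 0.49 (SE, adjusted p = 0.887) in XZSW against HUA and -0.62 ± 0.49 (SE, adjusted p = 0.486) in XZSW against CTL. Without HUA1 the change in HUA was called, at -1.18 (adjusted p = 0.0375), and with the flat libraries alone, where HUA1 is the only HUA library, it was 0.66. Ppargc1a (ENSMUSG00000029167, chr5:51454250-51567704, minus strand), which encodes PGC-1 alpha, was at 79.8, 67.5, 69.1 and 79.4 CPM in CTL1 to CTL4, 66.0, 47.9, 21.8 and 29.4 in HUA1 to HUA4, and 58.5, 60.3, 49.3 and 65.2 in XZSW1 to XZSW4. All HUA libraries lay below CTL, HUA1 only just, and XZSW overlapped HUA. Ppargc1a fell in HUA by a log2 change of -0.84 ± 0.27 (SE, adjusted p = 0.0309), and this call was lost in 13 of 23 alternatives, among them leaving out HUA3, HUA4 or any 1 CTL library. In XZSW against HUA its change was 0.50 ± 0.26 (SE, adjusted p = 0.229).

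Activation and uptake were represented by Slc27a2 and Acsl1. Slc27a2 (ENSMUSG00000027359, chr2:126552407-126588243, plus strand), a very long-chain acyl-CoA synthetase and fatty acid transporter, was at 4615, 5024, 4934 and 4693 CPM in CTL1 to CTL4, 2132, 3099, 2164 and 1157 in HUA1 to HUA4, and 3359.5, 3183, 2625 and 2652 in XZSW1 to XZSW4. HUA libraries were all below CTL, HUA4 lowest, and HUA2 lay among the XZSW libraries. In HUA it fell, 2.25-fold lower on the fitted scale, at a log2 change of -1.17 ± 0.23 (SE, adjusted p = 0.00265). In XZSW its log2 change was 0.47 ± 0.23 (SE, adjusted p = 0.194) against HUA and -0.70 ± 0.23 (SE, adjusted p = 0.0896) against CTL. Acsl1, the long-chain acyl-CoA synthetase of liver and kidney, fell in HUA by a log2 change of -1.48 ± 0.43 (SE, adjusted p = 0.0215). The flat libraries XZSW1 and XZSW2 had 266 and 267 CPM and the steep libraries XZSW3 and XZSW4 107 and 113 CPM, and HUA1 had 209 CPM against 54.7 to 128 in the steep HUA libraries. With the steep or flat state as a factor, with the flat libraries alone, or without CTL4, HUA3 or HUA4, the Acsl1 call was lost.

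All 5 genes of the carnitine shuttle fell in HUA. Cpt2 (ENSMUSG00000028607, chr4:107903981-107923610, minus strand), the carnitine palmitoyltransferase of the inner membrane, was at 234, 300.2, 282 and 327 CPM in CTL1 to CTL4, 119, 155, 80.3 and 107 in HUA1 to HUA4, and 177, 161, 131 and 123 in XZSW1 to XZSW4. The HUA and XZSW libraries all lay below CTL and overlapped each other. Cpt2 fell in HUA by a log2 change of -1.31 ± 0.20 (SE, adjusted p = 0.000551) and was lower in XZSW than in CTL at -0.95 ± 0.20 (SE, adjusted p = 0.0221), the latter call lost without CTL2, CTL3, CTL4, XZSW3 or XZSW4. Crat (ENSMUSG00000026853, chr2:30400471-30415771, minus strand), carnitine acetyltransferase, which moves acetyl groups between CoA and carnitine, was at 202, 218, 199.6 and 229.9 CPM in CTL1 to CTL4, 105, 121, 73.4 and 90.1 in HUA1 to HUA4, and 166, 174, 163 and 161 in XZSW1 to XZSW4. The 3 groups did not overlap, with XZSW between HUA and CTL and its 4 libraries within a narrow range. Its log2 change was -1.13 ± 0.15 (SE, adjusted p = 0.000206) in HUA against CTL, 0.77 ± 0.14 (SE, adjusted p = 0.00476) in XZSW against HUA and -0.36 ± 0.14 (SE, adjusted p = 0.161) in XZSW against CTL.

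Cpt1a, the outer-membrane carnitine palmitoyltransferase and entry step of the shuttle, fell 2.07-fold in HUA, from 537 ± 27.4 to 259.7 ± 81.2 CPM (mean ± SD, n = 4). The carrier Slc25a20, which exchanges acylcarnitine for carnitine across the inner membrane, fell 2.19-fold, from 84.0 ± 12.3 to 38.3 ± 9.37 CPM. In XZSW both had no call against HUA or CTL, at 0.44 and 0.46 against HUA on the log2 scale. Cpt1b, the muscle isoform of the entry enzyme, was at 49.5, 51.1, 36.8 and 71.8 CPM in CTL1 to CTL4, 33.4, 15.1, 10.2 and 12.3 in HUA1 to HUA4, and 17.2, 7.74, 32.2 and 48.7 in XZSW1 to XZSW4. HUA lay below CTL, and in XZSW the flat libraries were the low ones, the only member with that order; it is singled out here after its values were seen. Its fall in HUA, -1.56 ± 0.49 (SE, adjusted p = 0.0307), was lost in 12 of 23 alternatives, among them leaving out CTL1, CTL2, CTL4, HUA2, HUA3 or HUA4. The gene model Gm44502 overlaps all of Cpt1b on the same strand and had a mean of 12.5 CPM against 32.2 CPM for Cpt1b, so their reads may be shared.

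The mitochondrial spiral, the repeated round of reactions, had 8 members, which all fell in HUA, while 2 of them rose in XZSW against HUA and 3 were lower in XZSW than in CTL. Acadm (ENSMUSG00000062908, chr3:153922357-153944632, minus strand), medium-chain acyl-CoA dehydrogenase, was at 1026, 1163, 1173 and 1257 CPM in CTL1 to CTL4, 467, 486, 234 and 215 in HUA1 to HUA4, and 549.7, 536, 470.1 and 505 in XZSW1 to XZSW4. Every HUA and XZSW library was far under the lowest CTL library, HUA3 and HUA4 were lowest, and HUA2 lay within the XZSW range. It fell 3.30-fold in HUA, the largest log2 fall of a mitochondrial member at -1.72 ± 0.25 (SE, adjusted p = 0.000388). Against CTL it stayed 2.24-fold lower in XZSW, at -1.16 ± 0.24 (SE, adjusted p = 0.0221), and its change against HUA was 0.56 ± 0.24 (SE, adjusted p = 0.138). The call against CTL was lost without CTL2, CTL3, CTL4, XZSW1 or XZSW3.

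Acaa2 (ENSMUSG00000036880, chr18:74779197-74806208, plus strand), the mitochondrial ketoacyl-CoA thiolase that ends each round, was at 167, 169, 185 and 222 CPM in CTL1 to CTL4, 73.6, 87.1, 73.2 and 85.6 in HUA1 to HUA4, and 154, 173, 153 and 134 in XZSW1 to XZSW4. HUA and CTL did not overlap, HUA and XZSW did not overlap, and XZSW2 lay within CTL. It had the smallest p of all members in HUA against CTL, with a log2 change of -1.22 ± 0.14 (SE, adjusted p = 8.12e-05), and in XZSW against HUA, 0.94 ± 0.13 (SE, adjusted p = 0.00114). Its change in XZSW against CTL was -0.27 ± 0.13 (SE, adjusted p = 0.239). Hadh, the short-chain hydroxyacyl-CoA dehydrogenase, averaged 545 ± 10.2 CPM in the CTL, 262 ± 69.7 in the HUA and 415 ± 54.9 in the XZSW libraries (mean ± SD, n = 4), with no overlap between any 2 of the groups. Hadh fell in HUA and rose in XZSW against HUA by 0.67 ± 0.17 (SE, adjusted p = 0.0217), a call lost in 5 of 24 alternatives. These were the fits without HUA3, HUA4 or XZSW2, of the 8 libraries alone and of the steep libraries alone.

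The dehydrogenases for other chain lengths fell in HUA by less than Acadm. Acads, for short chains, changed by -1.07 on the log2 scale, Acadvl, for very long chains, by -0.84, and Acadl, for long chains, by -0.61. Acadl and Acadvl had changes of -0.09 ± 0.15 (SE, adjusted p = 0.745) and 0.13 ± 0.14 (SE, adjusted p = 0.57) in XZSW against HUA. Both were lower in XZSW than in CTL, at -0.70 and -0.71, calls lost without CTL2, CTL3, CTL4 or XZSW3 and, for Acadl, without XZSW4. Limma on log2(FPKM + 0.1) lost both calls too. Acads had 0.46 against HUA (adjusted p = 0.0853). The trifunctional protein genes Hadha and Hadhb, whose shared upstream interval is printed above, fell by -0.63 and -0.85 in HUA. In XZSW against HUA they had 0.10 (adjusted p = 0.726) and 0.41 (adjusted p = 0.0663). The log2 ratio of Hadhb to Hadha counts was -0.71 ± 0.15 across HUA and -0.42 ± 0.15 across XZSW (mean ± SD, n = 4), a difference of 0.29 (two-sided exact permutation p = 0.0286, adjusted p = 0.0735 over the 18 ratio tests run).

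The auxiliary enzymes of the mitochondrial matrix handle double bonds of unsaturated fatty acids. Eci1 (ENSMUSG00000024132, chr17:24426641-24439348, plus strand), enoyl-CoA isomerase, was at 144, 174, 185 and 222 CPM in CTL1 to CTL4, 89.8, 119, 70.1 and 127 in HUA1 to HUA4, and 114, 114, 101 and 91.0 in XZSW1 to XZSW4. HUA and XZSW overlapped widely below CTL. Decr1 (ENSMUSG00000028223, chr4:15917240-15945507, minus strand), dienoyl-CoA reductase, was at 223, 264, 301 and 325 CPM in CTL1 to CTL4, 124, 115, 70.5 and 136 in HUA1 to HUA4, and 152, 162, 109.6 and 108 in XZSW1 to XZSW4. HUA3 was the lowest library, and XZSW3 and XZSW4 lay below 3 of the HUA libraries. Eci1 fell in HUA by -0.84 ± 0.19 (SE, adjusted p = 0.00596) and Decr1 by -1.32 ± 0.21 (SE, adjusted p = 0.000855), and in XZSW against CTL both were lower, at -0.79 (adjusted p = 0.0356) and -1.06 (adjusted p = 0.0199). In XZSW against HUA they had 0.05 and 0.26, with no call, and the sign of Eci1 turned in 6 alternatives. The call of Eci1 against CTL was lost in 11 of 23 alternatives, among them leaving out CTL2, CTL3, CTL4 or any 1 XZSW library. Library-total scaling, no filter on low counts and both limma fits lost it too. The call of Decr1 against CTL was lost without XZSW3, CTL2, CTL3 or CTL4.

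Electron transfer flavoprotein carries electrons from the acyl-CoA dehydrogenases to the respiratory chain. Etfa (ENSMUSG00000032314, chr9:55454508-55512243, minus strand), its alpha subunit, was at 374, 427, 393 and 409 CPM in CTL1 to CTL4, 208, 226, 144 and 154 in HUA1 to HUA4, and 264, 303, 264 and 238 in XZSW1 to XZSW4. The 3 groups did not overlap, with XZSW in the middle. Etfa fell in HUA (-1.13 ± 0.16 (SE, adjusted p = 0.000322)), rose in XZSW against HUA (0.55 ± 0.16 (SE, adjusted p = 0.0316)) and was lower in XZSW than in CTL (-0.58 ± 0.16 (SE, adjusted p = 0.0482)). The last 2 calls were close to the threshold: 11 of 24 alternatives lost the rise and 14 of 23 lost the difference from CTL, the first among them without HUA3, HUA4, XZSW1, XZSW2 or XZSW3 and the second without any 1 CTL or XZSW library. Etfb (ENSMUSG00000004610, chr7:43444083-43457800, plus strand), the beta subunit, was at 435, 476, 473 and 548 CPM in CTL1 to CTL4, 185, 309, 196 and 215 in HUA1 to HUA4, and 328, 410.2, 426 and 357 in XZSW1 to XZSW4. HUA2 was the highest HUA library and still below XZSW1, the lowest of XZSW. Etfb fell in HUA by -1.10 ± 0.17 (SE, adjusted p = 0.000667) and rose in XZSW by 0.75 ± 0.17 (SE, adjusted p = 0.0115), and its difference from CTL was -0.35 ± 0.17 (SE, adjusted p = 0.243). Etfdh, the dehydrogenase that hands these electrons to ubiquinone, fell by -1.25 in HUA, had 0.28 in XZSW against HUA and was lower in XZSW than in CTL at -0.98 (adjusted p = 0.0212), a call lost without CTL2, CTL3, CTL4, XZSW3 or XZSW4.

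Peroxisomal oxidation had 7 members, all of which fell in HUA. Ehhadh (ENSMUSG00000022853, chr16:21761287-21787807, minus strand), the peroxisomal bifunctional enzyme and a well-known PPAR alpha target, was at 926, 1282, 1205 and 1678 CPM in CTL1 to CTL4, 419.9, 409, 140.1 and 102 in HUA1 to HUA4, and 684, 570.0, 295 and 296 in XZSW1 to XZSW4. HUA3 and HUA4 were lowest by far, and XZSW3 and XZSW4 lay below HUA1 and HUA2. It fell 4.75-fold in HUA, the largest fall of all members, at -2.25 ± 0.45 (SE, adjusted p = 0.00276). In XZSW its change was 0.78 ± 0.43 (SE, adjusted p = 0.248) against HUA and -1.46 ± 0.44 (SE, adjusted p = 0.0698) against CTL, with no call. Pex11a (ENSMUSG00000030545, chr7:79735957-79743131, minus strand), a membrane protein of peroxisome division, was at 79.9, 94.8, 75.7 and 111 CPM in CTL1 to CTL4, 54.9, 49.2, 35.8 and 39.9 in HUA1 to HUA4, and 60.2, 66.4, 49.3 and 39.8 in XZSW1 to XZSW4. HUA lay below CTL, and XZSW overlapped HUA. Pex11a fell in HUA by -1.01 ± 0.19 (SE, adjusted p = 0.00205) and was lower in XZSW than in CTL at -0.74 ± 0.19 (SE, adjusted p = 0.0427), a call lost in 13 of 23 alternatives, among them leaving out XZSW1, XZSW3, XZSW4 or any 1 CTL library.

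Acaa1a (ENSMUSG00000036138, chr9:119339676-119350298, plus strand), a peroxisomal ketoacyl-CoA thiolase, was at 114, 123, 125 and 125 CPM in CTL1 to CTL4, 52.6, 89.1, 60.3 and 69.6 in HUA1 to HUA4, and 86.9, 125, 117 and 97.0 in XZSW1 to XZSW4. In CTL the libraries were close together, HUA lay below them, and XZSW reached the CTL range in XZSW2 and XZSW3. It fell in HUA by -0.84 ± 0.17 (SE, adjusted p = 0.00265) and rose in XZSW by 0.65 ± 0.17 (SE, adjusted p = 0.0207). The rise of Acaa1a was lost in 7 of 24 alternatives, among them leaving out HUA3, XZSW2 or XZSW3. Library-total scaling, the fit of 8 libraries and limma on log2(FPKM + 0.1) lost it too. The paralog Acaa1b fell by -1.54 and rose by 1.09 ± 0.30 (SE, adjusted p = 0.0265). That rise was lost in 6 of 24 alternatives, among them leaving out HUA3, HUA4 or XZSW2. The fit of 8 libraries and the steep or flat state as a factor lost it too. The paralogs share sequence: 7.21% of the 100-base windows of Acaa1a and 19.3% of those of Acaa1b occur in the other, so the split of reads between them is uncertain. Decr2, the peroxisomal dienoyl-CoA reductase, averaged 61.7 ± 4.45 CPM in the CTL, 24.2 ± 10.4 in the HUA and 51.6 ± 15.3 in the XZSW libraries. It rose in XZSW against HUA by 1.09 ± 0.30 (SE, adjusted p = 0.0256), and XZSW2 exceeded every CTL library. The rise of Decr2 was lost in 5 of 24 alternatives, among them the fit of 8 libraries and leaving out HUA4, XZSW1 or XZSW2. Eci2, an enoyl-CoA isomerase counted here with the peroxisomal members, fell by -0.96 in HUA. It was lower in XZSW than in CTL at -0.78 (adjusted p = 0.0354), a call lost in 11 of 23 alternatives. Among them were leaving out XZSW1, XZSW3, XZSW4 or any 1 CTL library. No filter on low counts, the steep or flat state as a factor and both limma fits lost it too. Hsd17b4, the D-bifunctional protein, had the smallest fall of the peroxisomal members, -0.68 ± 0.16 (SE, adjusted p = 0.00764), and 0.12 in XZSW against HUA; the pseudogene Cd63-ps lies inside it on the same strand with a mean of 50.7 CPM, against 236 CPM for Hsd17b4.

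The thioesterases, which release free fatty acids from acyl-CoA, did not share their calls after the decoction. Acot1 (ENSMUSG00000072949, chr12:84009490-84018371, plus strand), the cytosolic enzyme, was at 138, 185, 159 and 342 CPM in CTL1 to CTL4, 92.5, 87.6, 51.3 and 73.4 in HUA1 to HUA4, and 88.5, 73.3, 55.6 and 41.2 in XZSW1 to XZSW4. CTL4 stood far above the other 3 CTL libraries, all HUA and XZSW libraries lay below CTL, and XZSW4 was the lowest of the 12. Acot1 fell in HUA by -1.44 ± 0.31 (SE, adjusted p = 0.00415), had -0.24 ± 0.30 (SE, adjusted p = 0.655) in XZSW against HUA, and was 3.19-fold lower in XZSW than in CTL, at -1.67 ± 0.31 (SE, adjusted p = 0.0157), the largest such difference of a member and a call lost in 1 of 23 alternatives, without XZSW3. Acot2, the mitochondrial enzyme, followed the same order, with -1.20 in HUA against CTL, -0.18 in XZSW against HUA and -1.38 in XZSW against CTL (adjusted p = 0.0231). The last call was lost without CTL2, CTL4, XZSW3 or XZSW4 and with the flat libraries alone.

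Acot3 (ENSMUSG00000021228, chr12:84052144-84060402, plus strand), the peroxisomal enzyme, was at 50.4, 59.3, 39.1 and 67.6 CPM in CTL1 to CTL4, 14.6, 24.3, 2.41 and 4.43 in HUA1 to HUA4, and 42.4, 53.7, 22.5 and 36.5 in XZSW1 to XZSW4. HUA3 and HUA4 were far below all other libraries, and XZSW overlapped HUA only where XZSW3 lay under HUA2. It fell 4.74-fold in HUA (-2.24 ± 0.56 (SE, adjusted p = 0.00925)) and rose 3.39-fold in XZSW against HUA (1.76 ± 0.55 (SE, adjusted p = 0.0456)), and that rise was lost in 16 of 24 alternatives, among them leaving out any 1 library except HUA2. The log2 ratio of Acot3 to Acot1 counts was -1.86 ± 0.40 in CTL, -3.24 ± 1.20 across HUA and -0.75 ± 0.52 across XZSW (mean ± SD, n = 4). The ratio was higher in XZSW than in HUA by 2.50 and than in CTL by 1.12 (two-sided exact permutation p = 0.0286 for each, the smallest that 4 against 4 allows, adjusted p = 0.0735 over 18 ratio tests). The ratio of Acot3 to Acot2 differed in the same direction, by 2.47 and 0.83, with the same p. That of Acot1 to Acot2 differed from CTL by -0.25 in HUA and -0.28 in XZSW, again with this p. Between XZSW and HUA it differed by -0.029 (exact permutation p = 0.771). The 18 ratio tests covered 6 pairs of members, of which Hadha with Hadhb and Etfa with Etfb were added after their values were seen. Of the 18, 7 had an unadjusted p under 0.05 and 0 passed after adjustment. All 7 were at 0.0286, the smallest permutation p possible, and 7 of 18 tests at that value cannot pass the adjustment. Of the 100-base windows of Acot1, 9.32% occur in Acot2 and 2.70% in Acot3, so reads may have been split between them.

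Ech1 and Acad11 act in both organelles or are placed differently by different sources. Ech1 (ENSMUSG00000053898, chr7:28825217-28832247, plus strand), a dienoyl-CoA isomerase, was at 613, 659, 686 and 839.9 CPM in CTL1 to CTL4, 326, 409.8, 256 and 401 in HUA1 to HUA4, and 396, 462, 437 and 444 in XZSW1 to XZSW4. HUA and XZSW overlapped, both below CTL, and CTL4 was highest. Ech1 fell in HUA by -1.01 ± 0.16 (SE, adjusted p = 0.000855) and was lower in XZSW than in CTL at -0.69 ± 0.16 (SE, adjusted p = 0.034), a call lost in 12 of 23 alternatives, among them leaving out any 1 CTL or any 1 XZSW library. Acad11 (ENSMUSG00000090150, chr9:104063377-104127725, plus strand), an acyl-CoA dehydrogenase of long and very long chains, was at 282, 278, 287 and 265 CPM in CTL1 to CTL4, 145, 128, 66.5 and 67.2 in HUA1 to HUA4, and 193, 242, 151 and 139 in XZSW1 to XZSW4. CTL was narrow, HUA3 and HUA4 were lowest, and XZSW4 was just below HUA1. Acad11 fell in HUA by -1.45 ± 0.26 (SE, adjusted p = 0.00145) and rose in XZSW by 0.84 ± 0.26 (SE, adjusted p = 0.0424), a rise lost in 14 of 24 alternatives, among them leaving out HUA3, HUA4, XZSW1, XZSW2, XZSW3 or any 1 CTL library.

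**Figure D3:**
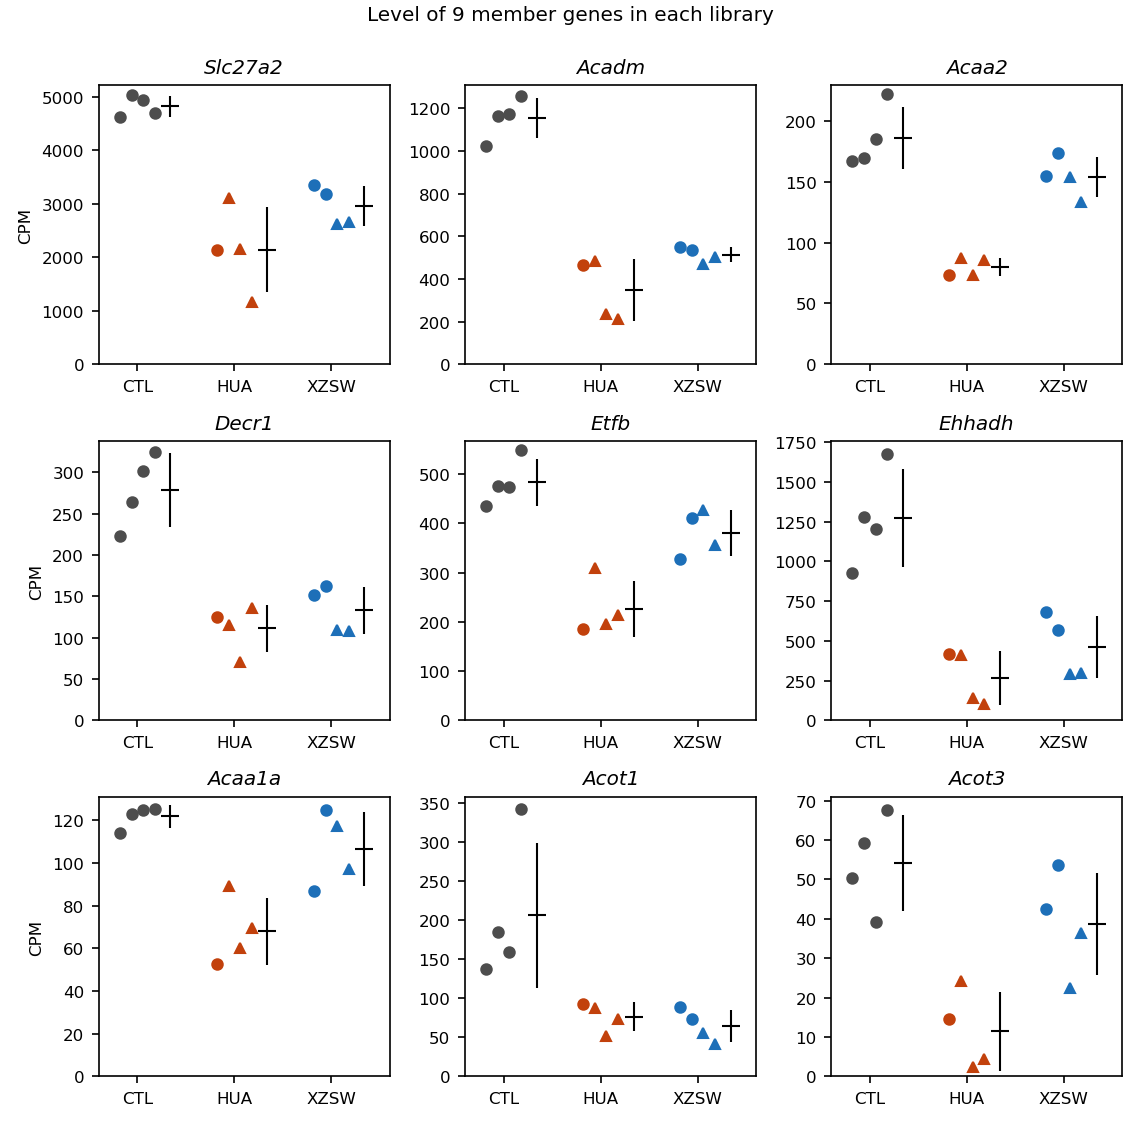
CPM of 9 members in each library, with the mean and SD (n = 4) of each group to the right of its points; circles are flat and triangles steep libraries. HUA lies below CTL in all 9 panels, Acaa2 and Etfb in XZSW lie wholly above HUA, and Acot1 in XZSW overlaps HUA.

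Within the groups many members shared an order of the libraries. HUA3 was the lowest HUA library for 27 of 34 members, against 23.9% of all tested genes, and CTL4 the highest CTL library for 26, against 26.7%. In XZSW both flat libraries, XZSW1 and XZSW2, lay above both steep libraries for 25 members, below them for Cpt1b alone, and overlapped for 8. Over all tested genes the flat ones lay above in 27.0% and below in 28.0%. HUA1, the flat HUA library, was the highest of its group for 15 members, as was HUA2 for another 15, and the lowest for Etfb and Acaa1a. The median log2 level of the members over the CTL mean was -0.57 and -0.44 in XZSW1 and XZSW2 and -0.85 and -0.92 in XZSW3 and XZSW4. In HUA1 to HUA4 it was -0.96, -0.83, -1.56 and -1.28. Among flat libraries alone, 25 members fell in HUA1 against CTL, where HUA is a single library assumed to vary like the other groups, 12 rose in XZSW against HUA1, and 17 were lower in XZSW than in CTL. The shares of all tested genes with these calls in that fit were 11.4%, 5.55% and 7.33%.

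The order of the libraries by the members could be set beside that by the proximal tubule markers. The median log2 level of the 15 markers over the CTL mean was -1.48, -0.65, -1.79 and -2.40 in HUA1 to HUA4, and -0.17, -0.01, -0.39 and -0.28 in XZSW1 to XZSW4. HUA2 had the highest level of both sets among HUA libraries, while the lowest was HUA3 for the members and HUA4 for the markers. XZSW4 was lowest in XZSW for the members and XZSW3 for the markers. In XZSW the marker median had a log2 change of -0.15 against CTL with 0 of 15 genes past the test, and the members had -0.64 with 13 of 34 past it. Of all tested genes 2.27% were lower and 2.72% higher in that comparison. Counts that map to the mitochondrial genome were 11.66 to 14.9% of the total in CTL, 7.85 to 11.3% in HUA and 13.5 to 17.2% in XZSW.

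**Figure D4:**
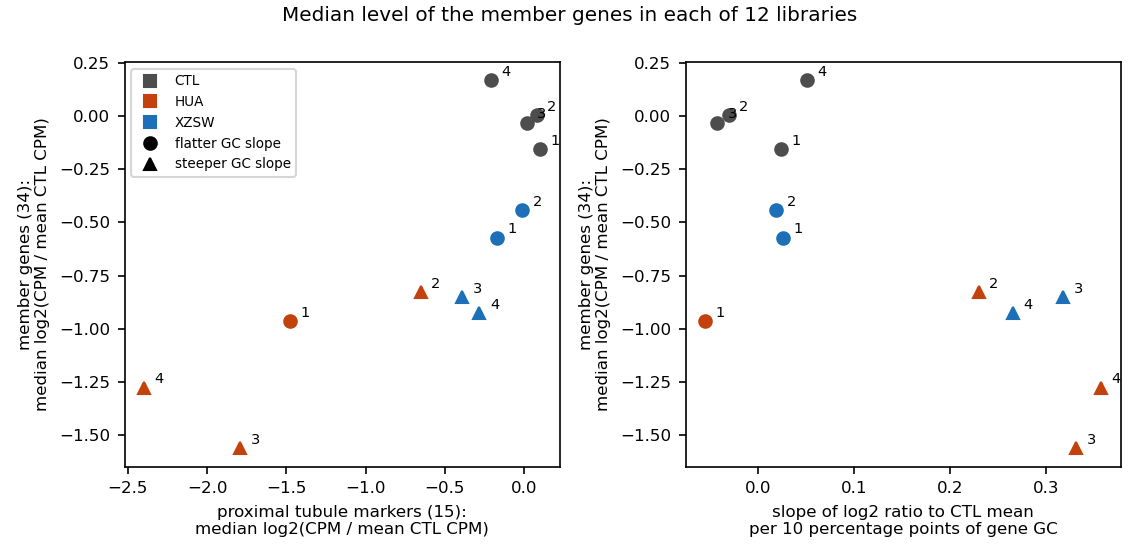
Median log2 level of the 34 members over the CTL mean in each library (y axis), against the same median of 15 proximal tubule markers (left) and against the GC slope of the library (right); numbers are replicates, colours groups, circles flat and triangles steep libraries. CTL lies between -0.15 and 0.17 on the y axis, XZSW between -0.92 and -0.44 and HUA between -1.56 and -0.83.

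Of 83 other genes of the pathway, listed with earlier results of these data known, 82 were tested. In HUA against CTL 56 fell and 2 rose, where 12.8% of all tested genes fell and 14.9% rose. In XZSW against HUA 29 rose and 6 fell, where 7.09% of all tested genes rose and 8.34% fell. Against CTL, 9 were lower and 0 higher in XZSW (edgeR, with 2 higher at an unadjusted p under 0.05). Of all tested genes 2.27% were lower and 2.72% higher there. The 82 genes had median log2 changes of -1.04, 0.48 and -0.43 in the 3 comparisons. Among them 16 of 19 genes of peroxisomal oxidation and import fell in HUA and 6 rose in XZSW against HUA. Of 16 genes listed as PPAR alpha targets of omega-oxidation and lipid handling, 10 fell and 1 rose in HUA. In XZSW against HUA 1 of them, Cyp4a12a, rose and 4 fell. Whether each of the 16 responds to PPAR alpha in these kidneys was not tested. Named after their values were seen, the 2 genes that rose in HUA were Plin2, a lipid droplet coat protein, and Acsl5, and the 4 targets that fell in XZSW against HUA were Plin2, Pdk4, Angptl4 and Fgf21. Plin2 was at 34.5, 41.3, 26.9 and 89.4 CPM in CTL1 to CTL4, 79.2, 102, 601 and 504 in HUA1 to HUA4, and 58.5, 33.0, 30.5 and 27.4 in XZSW1 to XZSW4. HUA3 and HUA4 were far above the rest, and CTL4 lay above HUA1. The rise of Plin2 was lost with the steep or flat state as a factor and with the flat libraries alone. Fgf21 was at or below 4.93 CPM in every library, and its call was lost in 11 of 24 alternatives, among them leaving out HUA3, HUA4 or any 1 XZSW library.

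Aldh3a2, a fatty aldehyde dehydrogenase, was at 214, 218, 267 and 249 CPM in CTL1 to CTL4, 111, 118, 83.7 and 85.6 in HUA1 to HUA4, and 154, 159, 126 and 118 in XZSW1 to XZSW4. It fell in HUA by -1.25 ± 0.16 (SE, adjusted p = 0.000173) and was lower in XZSW than in CTL at -0.77 (adjusted p = 0.021), a call lost without CTL2, CTL3, CTL4 or XZSW3. Pex14, a docking protein of peroxisomal import, changed alike, with -0.92 in HUA and -0.67 in XZSW against CTL (adjusted p = 0.000238 and 0.0149). Cyp4a12a, a fatty acid omega-hydroxylase, and Mlycd, malonyl-CoA decarboxylase, which removes an inhibitor of the carnitine shuttle, fell by -1.70 and -1.39 in HUA. Both rose in XZSW against HUA, by 1.11 ± 0.23 (SE, adjusted p = 0.00773) and 0.74 ± 0.20 (SE, adjusted p = 0.0255), the latter lost without HUA3, XZSW2 or XZSW3. Ivd, isovaleryl-CoA dehydrogenase of leucine breakdown, fell by -1.26 and rose by 1.07 ± 0.21 (SE, adjusted p = 0.00621).

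Esrra, which encodes the nuclear receptor ERR alpha, a partner of PGC-1 alpha, was at 78.1, 73.2, 83.9 and 77.5 CPM in CTL1 to CTL4, 46.4, 43.6, 24.6 and 33.3 in HUA1 to HUA4, and 67.9, 75.7, 94.4 and 87.6 in XZSW1 to XZSW4. All HUA libraries were below all others, and XZSW spanned the CTL range. It fell by -1.08 ± 0.18 (SE, adjusted p = 0.00109) and rose by 1.14 ± 0.18 (SE, adjusted p = 0.00212), with 0.06 in XZSW against CTL, while Ppara and Ppargc1a had no call between XZSW and HUA. Angptl4, a lipase inhibitor, and Pdk4, a kinase that restrains pyruvate dehydrogenase, are PPAR alpha targets that went the other way from the members that rose. Angptl4 was at 270.05, 309, 228 and 398 CPM in CTL1 to CTL4, 176, 146, 155 and 136 in HUA1 to HUA4, and 44.9, 92.5, 44.7 and 41.2 in XZSW1 to XZSW4. Pdk4 was at 533, 645, 229 and 699 CPM in CTL1 to CTL4, 365, 139, 152 and 97.3 in HUA1 to HUA4, and 37.3, 57.7, 16.6 and 26.1 in XZSW1 to XZSW4. In both genes every XZSW library lay below every HUA library, and CTL3 had less Pdk4 than HUA1. Angptl4 fell by -0.97 ± 0.25 (SE, adjusted p = 0.0117) in HUA against CTL and by -1.46 ± 0.26 (SE, adjusted p = 0.0033) in XZSW against HUA, and Pdk4 by -1.48 ± 0.46 (SE, adjusted p = 0.0298) and -2.45 ± 0.48 (SE, adjusted p = 0.00599). The Pdk4 call in HUA was lost in 11 of 23 alternatives, among them leaving out CTL1, CTL2, CTL4, HUA2, HUA3 or HUA4.

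**Figure D5:**
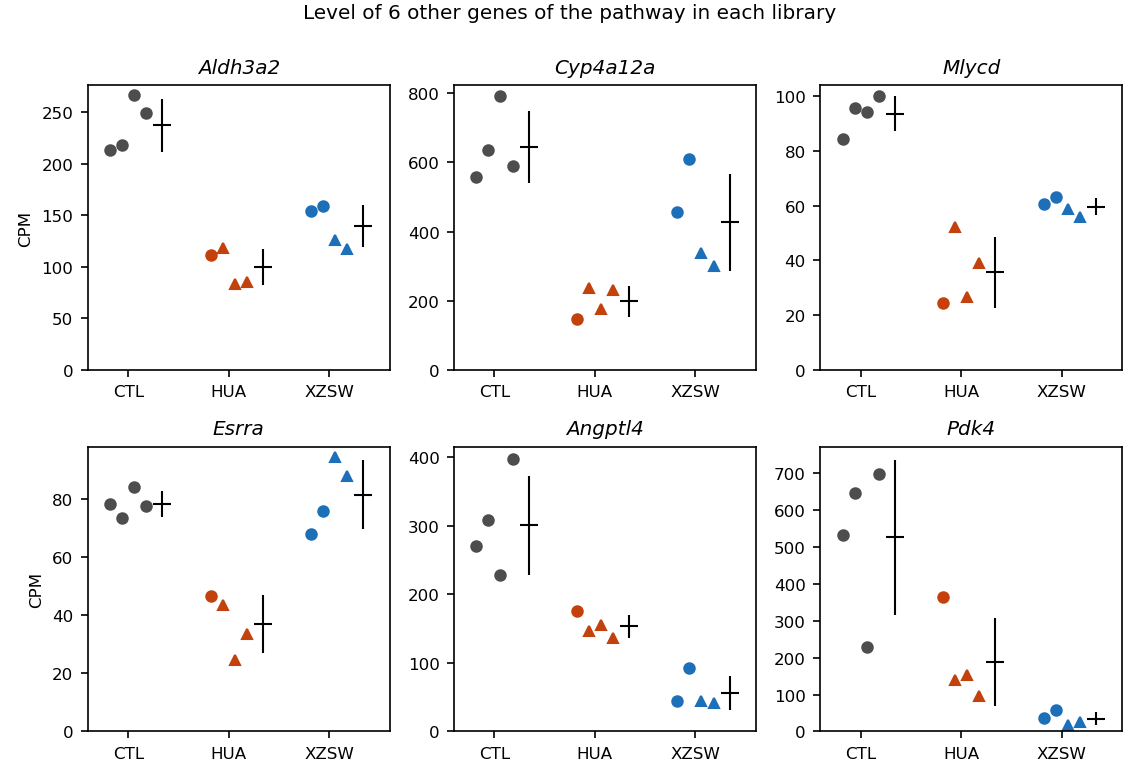
CPM of 6 other genes of the pathway in each library, with the mean and SD (n = 4) of each group to the right of its points; circles are flat and triangles steep libraries. Aldh3a2, Cyp4a12a, Mlycd and Esrra in HUA lie below CTL and XZSW, except that the Aldh3a2 libraries XZSW4 and HUA2 overlap, and Angptl4 and Pdk4 are lowest in XZSW.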

How the data were processed

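Kidney RNA was taken with TRIzol from samples with an RNA integrity number over 7 and made into strand-specific libraries, per the labels' protocols. The submitters' processing notes name cutadapt 1.9, HISAT2 2.2.1 and the build GRCm38. How reads were counted, whether strand was used in counting, and which annotation served are not given in the sources used here. Per gene, the authors deposited raw counts and FPKM values of all 12 libraries in 1 table, per the file headers. The columns carry the letters C, N and M, matched to CTL, HUA and XZSW through the sample descriptions; no other label checks this match. Gene positions are the table's own.

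Genes were kept by edgeR's filterByExpr (19772 of 33188), scaled by TMM and tested on the deposited counts with edgeR 4.0.16 quasi-likelihood F-tests over all 12 libraries (R 4.3.3). P-values were adjusted by Benjamini-Hochberg over all genes tested, and genes called at an adjusted p under 0.05; rose and fell are used only for these, and SE is from the F statistic. The deposited FPKM values were used for levels per length and for limma 3.58.1 on log2(FPKM + 1) or log2(FPKM + 0.1). Alternatives were other scalings (DESeq2 size factors, library totals), no filter or at least 1 CPM in 4 libraries, DESeq2 1.42.0, fits of 8 libraries, a replicate block, the steep or flat state (GC split) as a factor and leaving out each library. The GC slope of a library was fitted over 14635 genes. Members, roles, lists and tests were chosen with earlier results of these data known. Values of every library are given for the member of each role with the highest FPKM and those with the smallest p in the first 2 comparisons, and for Ppara and Cpt1b, chosen after their values were seen. Of the other pathway genes the 4 with the smallest p in each of these 2 comparisons are named, and Plin2, Acsl5 and Fgf21 after their values were seen. The symbols came with identifiers in the table. In GENCODE M21, 34 of 34 members had the same lower coordinate, which is the 3' end of genes on the minus strand. For 31 members both the lower and the upper coordinate were the same. Another gene overlapped 19 members, 9 of them on the same strand. No 2 libraries of the same group were alike within counting noise (chi-square per degree of freedom of 23.9 or more). Of the list genes, Tmlhe was not analysed here. Protein sequences were not used here. Scripts were tested on simulated data.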

Additional observations from a re-analysis of the deposited data

Results flagged for a closer look

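In each of 3 groups of 4 libraries, the highest and the lowest library of each of the 34 members was checked for a gap to its nearest neighbour that was large beside the range of the group (Dixon's ratio, at the 95% critical value for 4 samples). Of 102 groups 1 passed, fewer than the 1 in 20 that chance gives. It was Acads, the short-chain acyl-CoA dehydrogenase, in XZSW1, at 138.8 CPM against 169, 172 and 173 CPM in XZSW4, XZSW3 and XZSW2, with a ratio of 0.899. XZSW1 was also the library with adipocyte markers at 61.3 CPM; their part in this value was not tested.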

How the results depend on the processing

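The number of members called in HUA against CTL was 33 and stayed between 22 and 34 in 23 alternatives. Over all tested genes 12.8% fell, and 11.1% and 14.1% in the fits that gave 22 and 34. In XZSW against HUA (10 rose, with 7.09% of all tested genes) the members' count was 6 with library-total scaling and 3 in the fit of 8 libraries. In the same fits 4.23% and 2.51% of all tested genes rose. With the steep libraries alone the count was 0 (a fit in which 5 of 19772 genes rose). It was 3 to 13 when 1 library was left out, with shares of 3.60% to 8.65% over all tested genes. In XZSW against CTL (13 lower) it was 8 with no filter on low counts, 22 in the fit of 8 libraries, 8 and 6 with limma on log2(FPKM + 1) and log2(FPKM + 0.1), and 0 to 17 when 1 library was left out. With the replicate number as a block the counts were 33, 10 and 15. Of the 12 pairs of same-numbered libraries, 4 had a correlation of deviations over 0.1 (range -0.04 to 0.27). No correlation was computed for differently numbered pairs, so whether the numbers pair the samples was not tested. None of the 10 or 13 calls held in all alternatives, and no called value of a member changed sign in an alternative. The steep-only and flat-only fits were chosen after the data were seen; no steep-only fit could be made against CTL, which has no steep library.

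Values that changed sign had no call as reported or in the alternative. For Ppara the log2 change in HUA against CTL was 0.36 with the steep or flat state (the GC split) as a factor and 0.66 with flat libraries alone, in XZSW against HUA -0.54 to 0.57 when 1 library was left out (above 0 without HUA1 and without XZSW4), and in XZSW against CTL 0.014 with the GC split. In XZSW against HUA, Eci1 was -0.13 with library totals, -0.14 with steep libraries alone, -0.042 and -0.043 with limma, and -0.11 to 0.17 when 1 library was left out. Hsd17b4 was -0.060 with library totals, -0.0074 with the GC split, -0.064 with steep libraries alone, -0.023 and -0.024 with limma, and -0.040 to 0.23 when 1 library was left out. Hadha was -0.065 with library totals, -0.30 with flat libraries alone and -0.010 to 0.25 when 1 library was left out, and Acadvl was -0.037 with library totals. With flat libraries alone Acadl was 0.011, Acot2 0.093, Cpt1b -1.40, Etfdh -0.051 and Ppargc1a -0.14, and with steep libraries alone Eci2 was -0.019. In XZSW against CTL, Decr2 was 0.054 with the GC split and 0.073 with flat libraries alone, and with limma Acaa1a was 0.019 and 0.020 and Ivd 0.028 and 0.029. Esrra was -0.10 with flat libraries alone and -0.0057 to 0.14 when 1 library was left out. Acsl5 was 0.098 with library totals, 0.16 and 0.18 with limma and -0.14 to 0.072 when 1 library was left out, and Plin2 -0.67 to 0.12. For Fgf21 in HUA against CTL the range was -0.33 to 4.37. The cause of these changes was not tested. In data simulated for HUA against CTL over 19772 genes, 82 of 200 genes changed 2-fold were recovered.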
